A study of Mus musculus with 30 samples.

Results

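Gasdermin D and the caspases 1, 4 and 8, encoded by Gsdmd, Casp1, Casp4 and Casp8, were followed by RNA sequencing in DC3.2, a dendritic cell line from the mouse. The 4 genes were chosen by symbol, as genes of pyroptosis and caspase signalling, from 31427 gene symbols in the table of transcript levels. All libraries are labelled as this line, but titles begin with DC32R for the 24 replicated libraries and with Dc3.2 for the 6 single libraries, and the labels do not say how the 2 differ. The line was studied as 4 genotypes. WT cells have titles that read nosg, IRF1KO cells IRF1sg and IRF2KO cells IRF2sg, and DKO cells are labelled as lacking both of the interferon regulatory factors IRF1 and IRF2. Cells of each genotype spent 2 h in media, in IFNα (5000 U/mL) or in IFNγ (2 ng/mL), and each of these 12 groups has 2 libraries. A further 6 libraries, 1 per group, are from WT and from IRF2KO, either at 0 h or 2 h into IFNα or LPS. LPS is the lipopolysaccharide of the bacterial outer membrane, and its dose is not in the labels. The labels name no control for the targeting and do not say whether a mutant line is 1 clone, so the effect of the targeting itself cannot be told apart from that of the lost factor.

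Pyroptosis is a lytic form of cell death used by macrophages and dendritic cells against microbes. Caspase-1 is activated on inflammasomes, protein platforms that assemble around sensors of microbial products, and caspase-4 of the mouse, also called caspase-11, binds LPS in the cytosol directly. Both cleave gasdermin D, whose released fragment forms pores in the plasma membrane, and caspase-1 also matures the cytokines IL-1β and IL-18. Caspase-8 is the initiator caspase of death receptors, restrains necroptosis and can cleave gasdermin D as well. IRF1 and IRF2 bind related DNA elements with runs of GAAA, and IRF1 is itself induced by interferons.

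On GRCm38, with GENCODE M21 as the annotation, all 4 are protein-coding genes on the plus strand. Gsdmd lies at chr15:75862327-75867408, Casp1 at chr9:5298517-5307265, Casp4 at chr9:5308828-5336783 and Casp8 at chr1:58795374-58847503. Casp1 and Casp4 are neighbours in the same orientation, with 1563 bases between the end of the one and the start of the other. The promoters of Casp1, Casp4 and Casp8, from 250 bases before to 50 bases after a RefSeq start site on GRCm38.p6, are shown because interferon regulatory factors act at such windows and the levels of these genes with interferon are described further on. A promoter of Gsdmd was not used here. The windows are chr9:5298267-5298566 for Casp1, chr9:5308599-5308898 for the first of the Casp4 starts and chr1:58802252-58802551 for Casp8, which lies inside the span that GENCODE gives Casp8. Capitals mark matches to AANNGAAA, a short core of the sites bound by interferon regulatory factors, on either strand.
Casp1: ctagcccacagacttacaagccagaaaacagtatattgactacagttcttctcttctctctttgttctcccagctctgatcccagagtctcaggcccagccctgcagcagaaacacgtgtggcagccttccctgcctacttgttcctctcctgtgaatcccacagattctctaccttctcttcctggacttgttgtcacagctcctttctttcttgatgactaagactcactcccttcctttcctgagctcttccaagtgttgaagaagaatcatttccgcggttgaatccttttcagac
Casp4: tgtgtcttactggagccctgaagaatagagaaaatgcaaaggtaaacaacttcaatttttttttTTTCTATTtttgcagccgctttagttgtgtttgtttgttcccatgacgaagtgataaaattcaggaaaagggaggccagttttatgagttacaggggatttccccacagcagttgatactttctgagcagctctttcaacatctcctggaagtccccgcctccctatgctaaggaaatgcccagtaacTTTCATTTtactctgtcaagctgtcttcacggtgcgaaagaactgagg
Casp8: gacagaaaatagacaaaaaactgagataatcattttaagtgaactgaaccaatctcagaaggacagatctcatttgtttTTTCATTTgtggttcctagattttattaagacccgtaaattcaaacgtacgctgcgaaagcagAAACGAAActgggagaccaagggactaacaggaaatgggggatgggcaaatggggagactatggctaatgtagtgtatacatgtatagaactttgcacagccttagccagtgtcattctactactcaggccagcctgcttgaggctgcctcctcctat
The longer interferon regulatory element GAAANNGAAA and the GAS element TTCNNNGAA, the interferon gamma-activated site, were searched on both strands and matched none of the 3 windows. They are held by 3.44% and 8.3% of the 32851 promoters of the same length. The short core, which overlaps the longer element by construction and was added after the longer one had been searched, is held by 23.9% of them. Casp4 has it at bases 65 to 72 and 253 to 260 of its window, both on the minus strand, and Casp8 at bases 80 to 87 on the minus strand and 143 to 150 on the plus strand. In the Casp1 window no run of these letters was found.

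Levels are given in TPM, the usual abundance unit of RSEM, a share of each library corrected for transcript length, so that levels of different genes can be set side by side. TPM keeps no read totals, and the depth of the libraries is unknown. Between 10911 and 11101 gene symbols reached 1 TPM in a replicated library. Of 12 dendritic cell markers 8 reached 1 TPM in all 24 replicated libraries, while Flt3 was listed at 0 and Xcr1 and Clec9a stayed under 1 TPM in all of them. The 12 had a summed level of 5141 to 7337 TPM, with Cd74 alone at 3623 to 5097 TPM. Of 7 macrophage and monocyte markers, 6 were in the table and reached 1 TPM in all 24 libraries, with a summed level of 1549 to 2576 TPM. The 6 lymphocyte markers and the 5 fibroblast and epithelial markers stayed under 1 TPM in all 24 libraries. Transcripts of the targeted genes were present in every line. Irf1 was at 19.7 and 22.5 TPM in WT in media, at 23.6 and 30.6 TPM in IRF1KO and at 28.1 and 36.0 TPM in DKO. Irf2 in media was at 23.4 and 25.2 TPM in WT, at 17.4 and 18.2 TPM in IRF2KO and at 20.1 and 20.96 TPM in DKO. With IFNγ, Irf2 was at 33.3 and 30.6 TPM in WT and at 17.6 and 21.5 TPM in DKO. That difference, −0.69 ± 0.14 on the scale log2(TPM + 1), was called in the limma fit described below (adjusted p = 0.0169). No other difference of Irf1 or Irf2 between a mutant and WT was called without the block. These levels do not test the labels, since a frameshift can leave the transcript in place.

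Differences are given on the scale log2(TPM + 1) with their SE from a limma fit over 11842 genes, and a gene is called where the p adjusted over all genes is under 0.05. The share of all tested genes called in the same comparison is given as the background. The replicate numbers carry a date-like code each, and a second fit therefore treats the number as a block. Its value is given where it changes a call. Counts of same-numbered pairs of libraries are descriptive, since such pairs come from the same lines and the same replicate numbers. The share of all genes with pairs as uniform was not worked out. Over the 33 comparisons, limma without the block made 10 calls among the 4 genes, 9 for Gsdmd and 1 for Casp4. Casp1 and Casp8 had none. With the block Gsdmd had 9 calls, Casp4 8, Casp1 5 and Casp8 none. Over the same comparisons, between 0% and 1.39% of all genes were called without the block and between 0% and 3.06% with it.

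**Figure D1:**
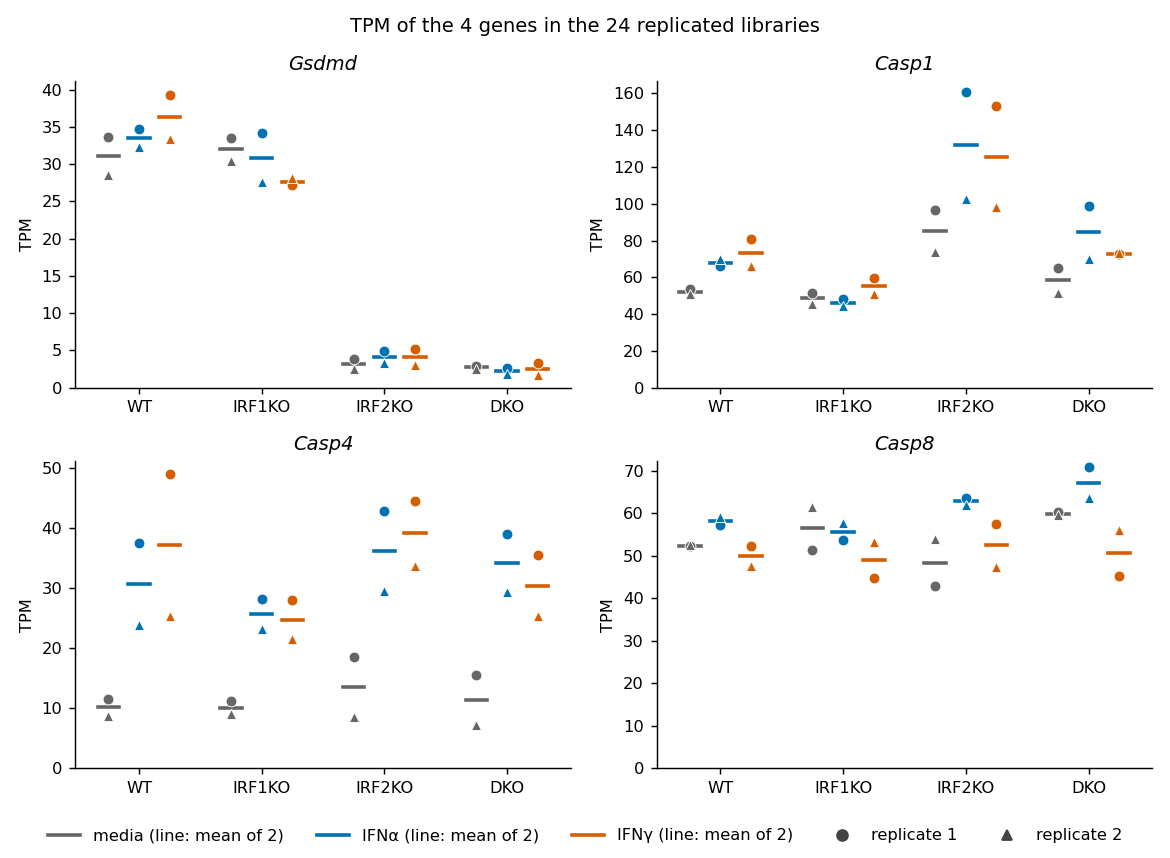
TPM of Gsdmd, Casp1, Casp4 and Casp8 (y axis, linear, from 0) in the 24 replicated libraries, by genotype (x axis) and treatment (colour); circles are replicate 1, triangles replicate 2 and lines the mean of the 2. Gsdmd was at 27.2 to 39.3 TPM in the WT and IRF1KO libraries and at 1.74 to 5.21 TPM in the IRF2KO and DKO libraries.

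Gsdmd, the gene of the pore-forming protein, separated the lines labelled as lacking IRF2 from the others. In WT it was at 33.6 and 28.5 TPM in media, at 34.8 and 32.3 TPM with IFNα and at 39.3 and 33.4 TPM with IFNγ. In IRF1KO it was at 33.5 and 30.5 TPM in media, at 34.2 and 27.6 TPM with IFNα and at 27.2 and 28.2 TPM with IFNγ. The 12 libraries had a median of 32.9 TPM. Both genotypes overlapped in media and with IFNα, while with IFNγ both IRF1KO libraries lay below both WT libraries and below both IRF1KO libraries in media. With 2 libraries a group this is common. The groups did not overlap for 24% of all tested genes between IRF1KO and WT with IFNγ, and for 29.5% between IFNγ and media in IRF1KO. In IRF2KO, Gsdmd was at 3.80 and 2.56 TPM in media, at 4.89 and 3.31 TPM with IFNα and at 5.21 and 3.07 TPM with IFNγ. In DKO it was at 2.92 and 2.58 TPM in media, at 2.70 and 1.83 TPM with IFNα and at 3.34 and 1.74 TPM with IFNγ. The highest of the 12 IRF2KO and DKO libraries, at 5.21 TPM, lay below the lowest of the 12 WT and IRF1KO libraries, at 27.2 TPM. In the order of the 12 group means, the step from IRF1KO with IFNγ (27.7 ± 0.70 TPM, SD, n = 2) to IRF2KO with IFNγ (4.14 ± 1.51 TPM) was the one place where neighbouring groups did not overlap. The libraries are bulk, so fewer cells with the transcript and less of it per cell cannot be told apart.

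Against WT, Gsdmd fell in IRF2KO, with a log2 difference of −2.95 ± 0.24 in media (adjusted p = 2.86e-06), −2.78 ± 0.24 with IFNα (adjusted p = 5.73e-06) and −2.89 ± 0.24 with IFNγ (adjusted p = 4.73e-06). Mean TPM was 9.77-fold, 8.18-fold and 8.78-fold higher in WT. Among all genes, 0.836%, 0.971% and 0.802% were called in these 3 comparisons, and of the 4 genes 1 was. In DKO, set against the same WT libraries, Gsdmd also fell, by differences of −3.09 ± 0.24 in media (adjusted p = 1.39e-06), −3.41 ± 0.24 with IFNα (adjusted p = 3.93e-07) and −3.43 ± 0.24 with IFNγ (adjusted p = 3.31e-07). Here the background was 0.76%, 1.05% and 1.31%, and Gsdmd was again the 1 gene of the 4 called. Against IRF1KO, which differs from DKO by the targeting of IRF2, Gsdmd fell in DKO, by differences of −3.14 ± 0.24 in media (adjusted p = 1.33e-06), −3.29 ± 0.24 with IFNα (adjusted p = 5.53e-07) and −3.06 ± 0.24 with IFNγ (adjusted p = 1.93e-06), with a background of 0.667%, 0.844% and 0.819%. The 9 calls held with each library left out in turn and with the replicate block. With only the 2 compared groups in the fit, which leaves 2 libraries a side, 5 of the 9 were lost at an unchanged difference, at adjusted p between 0.0584 and 0.107. These 5 were all 3 comparisons of IRF2KO with WT, and DKO with IFNγ against WT and against IRF1KO.

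Loss of IRF1 had no call for Gsdmd. IRF1KO differed from WT by 0.04 ± 0.24 in media, −0.12 ± 0.24 with IFNα and −0.38 ± 0.24 with IFNγ (adjusted p = 1 in each), where 0%, 0.177% and 0.236% of all genes were called. The 95% interval with IFNγ ran from −0.90 to 0.14. Between DKO and IRF2KO, Gsdmd differed by −0.14 ± 0.24, −0.64 ± 0.24 and −0.54 ± 0.24 in the same order, and none of these was called (adjusted p = 0.822, 1 and 1). The background was 0.118%, 0.38% and 0.481%. DKO was below IRF2KO in 5 of 6 same-numbered pairs of libraries. A test of whether the difference in DKO departs from the sum of those in the single mutants gave −0.19 ± 0.35 in media, −0.52 ± 0.35 with IFNα and −0.17 ± 0.35 with IFNγ for Gsdmd, with no call. In that test 0.0169%, 0.0169% and 0.0422% of all genes were called, and none of the 4 genes was.

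**Figure D2:**
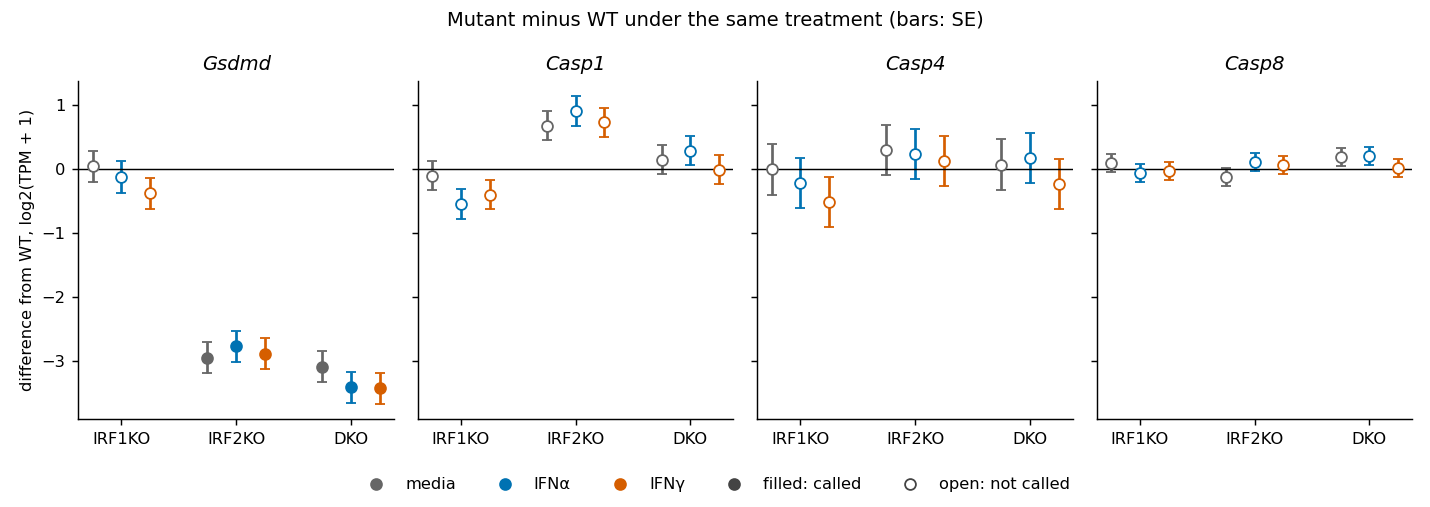
Difference of each mutant from WT under the same treatment for the 4 genes (y axis, log2(TPM + 1); x axis, mutant; colour, treatment), with bars for the SE from limma and filled points for calls without the replicate block. Gsdmd lay between −3.43 and −2.78 in IRF2KO and DKO, and no other gene had a filled point.

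Interferon left Gsdmd without a call in any line. The differences from media were 0.11 and 0.22 in WT, −0.06 and −0.20 in IRF1KO, 0.29 and 0.28 in IRF2KO and −0.21 and −0.12 in DKO, for IFNα and IFNγ in turn, each with an SE of 0.24. Of 16 differences between same-numbered libraries, 10 were above 0. The 95% intervals of the differences from media in the fit all lay between −0.73 and 0.80, so that a difference of 1 log2 unit was outside each interval. In the same WT libraries Irf1 was at 407 and 532 TPM with IFNγ, against 19.7 and 22.5 TPM in media, so the cells did respond in that transcript.

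Casp1, which encodes the protease of the inflammasome, was highest in IRF2KO. In media it was at 53.6 and 50.9 TPM in WT, 51.5 and 45.7 TPM in IRF1KO, 96.4 and 74.0 TPM in IRF2KO and 65.2 and 51.7 TPM in DKO. With IFNα it was at 66.1 and 69.9 TPM in WT, 48.3 and 44.3 TPM in IRF1KO, 161 and 103 TPM in IRF2KO and 98.9 and 70.1 TPM in DKO. With IFNγ it was at 80.6 and 66.4 TPM in WT, 59.4 and 51.2 TPM in IRF1KO, 153 and 98.1 TPM in IRF2KO and 72.7 and 73.0 TPM in DKO. Under each treatment both IRF2KO libraries lay above both WT libraries and above both DKO libraries. With 2 libraries a group this is common: in media, IFNα and IFNγ the groups did not overlap for 38%, 31.2% and 40.2% of all tested genes between IRF2KO and WT, and for 44.6%, 23.1% and 22% between DKO and IRF2KO. In the order of group means the 3 IRF2KO groups came first, but IRF2KO in media (85.2 ± 15.8 TPM, SD, n = 2) overlapped DKO with IFNα (84.5 ± 20.3 TPM) and IFNγ-treated WT.

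The difference of Casp1 between IRF2KO and WT was 0.68 ± 0.23 in media, 0.91 ± 0.23 with IFNα and 0.74 ± 0.23 with IFNγ. Without the block none was called (adjusted p = 0.402, 0.0941 and 0.235). In the blocked fit the SE was 0.15 and all 3 were called (adjusted p = 0.034, 0.00401 and 0.0194), against 1.8%, 2.14% and 2.19% of all genes. Within a replicate number the difference was above 0 in 6 of 6 pairs, from 0.53 to 1.27. Without the block, leaving out the second IRF2KO library with IFNα gave 1.23 for Casp1 (adjusted p = 0.0322) and leaving out the first gave 0.59 (adjusted p = 0.882), with the spread of the lone library taken from the other groups. Gsdmd was lower and Casp1 higher in the same IRF2KO libraries, but the 2 genes were not tested against each other.

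IRF1KO showed Casp1 below WT in 6 of 6 same-numbered pairs, with differences of −0.10 ± 0.23, −0.55 ± 0.23 and −0.40 ± 0.23 in media, IFNα and IFNγ, none called with or without the block. DKO lay between IRF2KO and IRF1KO. Against IRF2KO, Casp1 in DKO differed by −0.53 ± 0.23, −0.62 ± 0.23 and −0.74 ± 0.23, below 0 in 6 of 6 pairs. The last, with IFNγ, was called with the block (adjusted p = 0.0379, and 0.571 without it), as 0.667% of all genes were. Against IRF1KO it differed by 0.25 ± 0.23, 0.84 ± 0.23 and 0.40 ± 0.23, above 0 in 6 of 6 pairs. Of these, the difference with IFNα was called with the block (adjusted p = 0.00789, and 0.169 without it), as 1.77% of all genes were. Against WT the differences of DKO were 0.15, 0.29 and −0.01, each ± 0.23, without a call in either fit. Interferon differences of Casp1 from media ran from −0.07 ± 0.23 (IFNα in IRF1KO) to 0.60 ± 0.23 (IFNα in IRF2KO) and none was called in either fit. They were above 0 in 14 of 16 same-numbered pairs, the 2 exceptions being IFNα in IRF1KO.

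Casp4, the gene of the cytosolic LPS receptor, was the member whose libraries with interferon all stood above all those in media. In media it was at 11.6 and 8.75 TPM in WT, 11.2 and 9.0 TPM in IRF1KO, 18.5 and 8.46 TPM in IRF2KO and 15.5 and 7.19 TPM in DKO. With IFNα it was at 37.5 and 23.9 TPM in WT, 28.3 and 23.2 TPM in IRF1KO, 42.8 and 29.5 TPM in IRF2KO and 39.1 and 29.4 TPM in DKO. With IFNγ it was at 49.1 and 25.3 TPM in WT, 28.0 and 21.5 TPM in IRF1KO, 44.6 and 33.7 TPM in IRF2KO and 35.6 and 25.3 TPM in DKO. The highest of the 8 media libraries, at 18.5 TPM, lay below the lowest of the 16 interferon libraries, at 21.5 TPM. Within a line, interferon and media did not overlap in 8 of 8 comparisons for Casp4, 6 for Casp1, 5 for Casp8 and 1 for Gsdmd. Between 27% and 37.2% of all tested genes did not overlap in such a comparison. Among the 8 interferon groups every neighbour in the order of means overlapped the next.

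Without the block, Casp4 rose in 1 of the 8 comparisons, that of IFNγ with media in WT, by 1.72 ± 0.39 (adjusted p = 0.0437, with a background of 1.26%). That call was lost when either WT library in media was left out (adjusted p = 0.146 and 0.451) or the first WT library with IFNγ (1.25, adjusted p = 0.566), and in 6 of 11 other settings. In the blocked fit the SE was 0.19, and Casp4 rose in all 8. In WT it rose by 1.48 with IFNα (adjusted p = 0.000141, and 0.139 without the block) and by 1.72 with IFNγ (adjusted p = 2.85e-05). In IRF1KO it rose by 1.27 with IFNα (adjusted p = 0.000981, and 0.362 without the block) and by 1.21 with IFNγ (adjusted p = 0.00134, and 0.349 without it). In IRF2KO it rose by 1.43 with IFNα (adjusted p = 0.000178, and 0.142 without the block) and by 1.55 with IFNγ (adjusted p = 0.000105, and 0.0925 without it). In DKO it rose by 1.59 with IFNα (adjusted p = 7.4e-05, and 0.0923 without the block) and by 1.42 with IFNγ (adjusted p = 0.000378, and 0.18 without it). With the block, IFNα called 1.41% of all genes in WT, 1.11% in IRF1KO, 1.82% in IRF2KO and 1.51% in DKO, and IFNγ 1.93%, 1.76%, 2.05% and 1.66% in the same order. Without it, IFNα called 1.04%, 0.819%, 1.39% and 1.01%, and IFNγ in IRF1KO, IRF2KO and DKO 1.16%, 1.13% and 0.777%. All 16 differences between same-numbered libraries were above 0, from 1.15 to 2.00. Replicate 1 had more Casp4 than replicate 2 in 12 of 12 groups, by a median of 0.44, as 4.51% of all tested genes did.

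**Figure D3:**
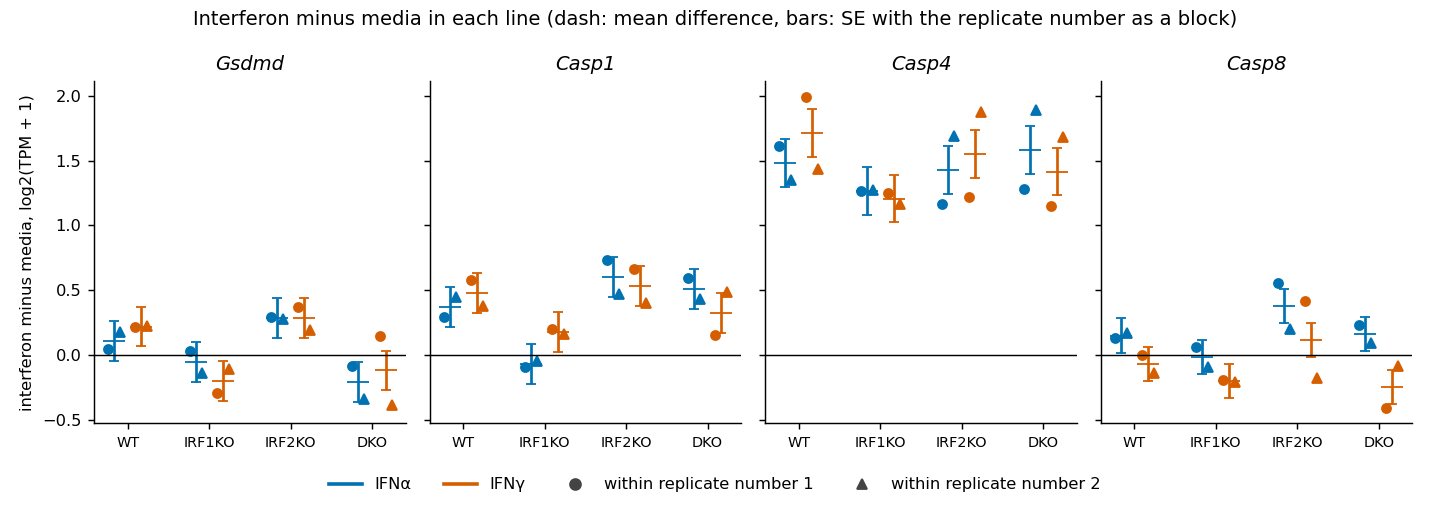
Difference of interferon from media in each line for the 4 genes (y axis, log2(TPM + 1); x axis, genotype; blue IFNα, orange IFNγ), with dashes for the mean, bars for its SE with the replicate block, and circles and triangles for the difference within replicate numbers 1 and 2. All Casp4 points lay between 1.15 and 2.00, and those of the other 3 genes between −0.41 and 0.73.

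No mutant differed from WT in Casp4 by a call in either fit. The differences ran from −0.51 ± 0.39 (IRF1KO with IFNγ) to 0.30 ± 0.39 (IRF2KO in media). The response itself was compared between lines by an interaction term. For Casp4 the response to IFNγ in IRF1KO minus that in WT was −0.51 ± 0.56, with a 95% interval from −1.69 to 0.68, and the response to IFNα differed by −0.21 ± 0.56. In IRF2KO these terms were −0.06 for IFNα and −0.17 for IFNγ, and in DKO 0.10 and −0.30, each ± 0.56. None of the 4 genes had a call among these interactions, where the background was 0.0253% and 0.0844% for IRF1KO with IFNα and IFNγ, 0.0676% and 0.0338% for IRF2KO and 0.0844% and 0.0929% for DKO. Without the block the intervals are wide. In the blocked fit the SE of these Casp4 terms was 0.26, and none was called there either. A difference in response was thus not detected, which does not show that it is absent. In WT, IFNγ and IFNα differed by 0.23 ± 0.39 in Casp4, and none of the 4 genes was called there while 0.768% of all genes were.

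Casp8, the initiator caspase of death receptors, had the smallest spread of group means among the 4 genes (SD 0.15 on the log2 scale, against 1.59 for Gsdmd). In media it was at 52.3 and 52.4 TPM in WT, 51.3 and 61.5 TPM in IRF1KO, 42.9 and 53.8 TPM in IRF2KO and 60.3 and 59.5 TPM in DKO. With IFNα it was at 57.2 and 59.1 TPM in WT, 53.6 and 57.6 TPM in IRF1KO, 63.7 and 61.9 TPM in IRF2KO and 70.8 and 63.5 TPM in DKO. With IFNγ it was at 52.1 and 47.5 TPM in WT, 44.7 and 53.2 TPM in IRF1KO, 57.5 and 47.3 TPM in IRF2KO and 45.2 and 56.0 TPM in DKO. No Casp8 difference was called in either fit. Differences from WT ran from −0.12 ± 0.14 in IRF2KO in media to 0.20 ± 0.14 in DKO with IFNα, and those from media from −0.25 ± 0.14 for IFNγ in DKO to 0.38 ± 0.14 for IFNα in IRF2KO. For IRF2KO against WT in media the 95% interval was −0.42 to 0.18. Within a replicate number, IFNα was above media in 7 of 8 pairs and IFNγ below media in 7 of 8.

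Set side by side per length in WT in media, Casp8 (52.4 ± 0.057 TPM, SD, n = 2) and Casp1 (52.3 ± 1.92 TPM) overlapped in level, Gsdmd followed at 31.1 ± 3.63 TPM and Casp4 at 10.2 ± 1.99 TPM. With IFNγ in WT, Casp4 at 37.2 ± 16.8 TPM overlapped Gsdmd at 36.4 ± 4.14 TPM. In IRF2KO in media Gsdmd, at 3.18 ± 0.88 TPM, was the lowest of the 4 and Casp1 the highest. Over the 12 group means, which share control libraries and lines, Pearson's r between members ran from −0.62 (Gsdmd and Casp1) to 0.58 (the neighbours Casp1 and Casp4). The genes most like each member were ranked by r over these 12 means among 362 genes with a level of at least 5 TPM in 1 group and an SD of at least 0.5. For Gsdmd they were Il17rc (r = 0.997), Agt (r = 0.995) and Ctso (r = 0.994), and for Casp4 they were Cxcl10 (r = 0.981), Irgm1 (r = 0.977) and Gm18853 (r = 0.969). For Casp1 they were Tmem140 (r = 0.945), Irg1 (r = 0.936) and Gbp4 (r = 0.908). For Casp8 they were Ccl2 (r = 0.819), Ccl4 (r = 0.805) and Ms4a6c (r = 0.788). The SDs of Casp8 (0.15) and Casp1 (0.48) are themselves under 0.5, so genes as steady as these were not ranked. Several ranked genes were low. Group means ran from 0.115 to 5.285 TPM for Il17rc, 0.61 to 10.03 TPM for Agt and 0.025 to 9.685 TPM for Ctso. For Gm18853 they ran from 2.485 to 9.33 TPM. By ranks, Spearman's rho was 0.811 for Agt, against 0.958 for Il17rc and 0.956 for Ctso. It was 0.748 for Gm18853, against 0.965 for Cxcl10 and 0.916 for Irgm1.

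Of 60 listed names of the wider pathway, 40 were tested, in 7 lists: inflammasome sensors and adaptors, other gasdermins and membrane rupture, other caspases, IL-1 family cytokines, death receptor signalling, necroptosis and caspase inhibitors. Between IRF2KO and WT in media 0 of the 40 rose, where 33 of all 11842 genes did. The median difference was −0.13 against −0.06 over all genes. Between DKO and WT in media 0 rose as well, where 27 of all 11842 genes did, with a median of 0.05 against 0.06 over all genes. With so few rises among all genes, 0 of 40 does not set the lists apart. Il18bp, which encodes a soluble antagonist of IL-18, was at 2.06 and 2.25 TPM in WT and at 0.74 and 0.23 TPM in DKO. Il18bp fell there by 1.11 ± 0.22 (adjusted p = 0.027), is under the level asked of named genes and was picked after its value was seen. The Il18bp call was lost with a pseudocount of 5, with only the compared groups in the fit and without the second DKO library or either WT library, and the gene is not tested with a filter at a mean of 5 TPM. Between IRF1KO and WT in media none of the 40 was called, where 0% of all 11842 genes were, so this count tells nothing particular to the lists.

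In WT, 1 of the 40 rose with IFNα and 3 with IFNγ, and 0 fell, where 1.04% and 1.26% of all genes were called, with medians of 0.07 and 0.15 against −0.06 and −0.01 over all genes. Tnfrsf1a, the main TNF receptor upstream of caspase-8, rose by 0.88 ± 0.15 with IFNα (adjusted p = 0.00403) from a mean of 50.6 to 94.1 TPM, and by 1.95 ± 0.15 with IFNγ (adjusted p = 4.99e-07). With IFNγ, Il18bp rose by 1.77 ± 0.22 (adjusted p = 0.000153), from 2.06 and 2.25 TPM to 9.72 and 9.78 TPM. The death receptor gene Fas rose by 1.20 ± 0.27 (adjusted p = 0.0433), from a mean of 14.7 to 34.0 TPM. The Fas call was lost without either WT library with IFNγ or the second in media, and the Tnfrsf1a call with IFNα without the first WT library with IFNα or the second in media. With the block, Txnip (0.58, adjusted p = 0.0146) and Tnf (0.97, adjusted p = 0.0133) were also called with IFNγ, as 1.93% of all genes were. Mlkl was called with IFNα (0.50, adjusted p = 0.0483), as 1.41% were. Against WT in media, Fas was called in IRF2KO (0.81, adjusted p = 0.0205) and in DKO (1.14, adjusted p = 0.00163), as 1.8% and 1.6% of all genes were. The rule for naming list genes used calls without the block, so these calls with it fall outside that rule. None of the 13 tested inflammasome sensors, adaptors and regulators was called without the block in any of these 5 comparisons. Of all genes, 1.04% and 1.26% were called with IFNα and IFNγ in WT. Against WT in media the shares were 0% in IRF1KO, 0.836% in IRF2KO and 0.76% in DKO. At shares this low, no call among 13 does not set the list apart. Pycard, the adaptor that links sensors to caspase-1, was at 58.4 to 94.6 TPM over the 24 libraries, the DNA sensor Aim2 at 15.6 to 33.0 TPM and Nlrp3 at 2.42 to 6.17 TPM. Of the other gasdermins, Dfna5 (gasdermin E) was at 0.84 to 1.99 TPM and the 7 genes of the Gsdma and Gsdmc groups stayed at or under 0.17 TPM. Ninj1, whose product ruptures the membrane after pore formation, was at 78.6 to 161.2 TPM. Casp12, next to Casp4 on chromosome 9, was listed at 0 in all 24 libraries, and Ripk3, the kinase of necroptosis, stayed at or under 0.33 TPM.

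**Figure D4:**
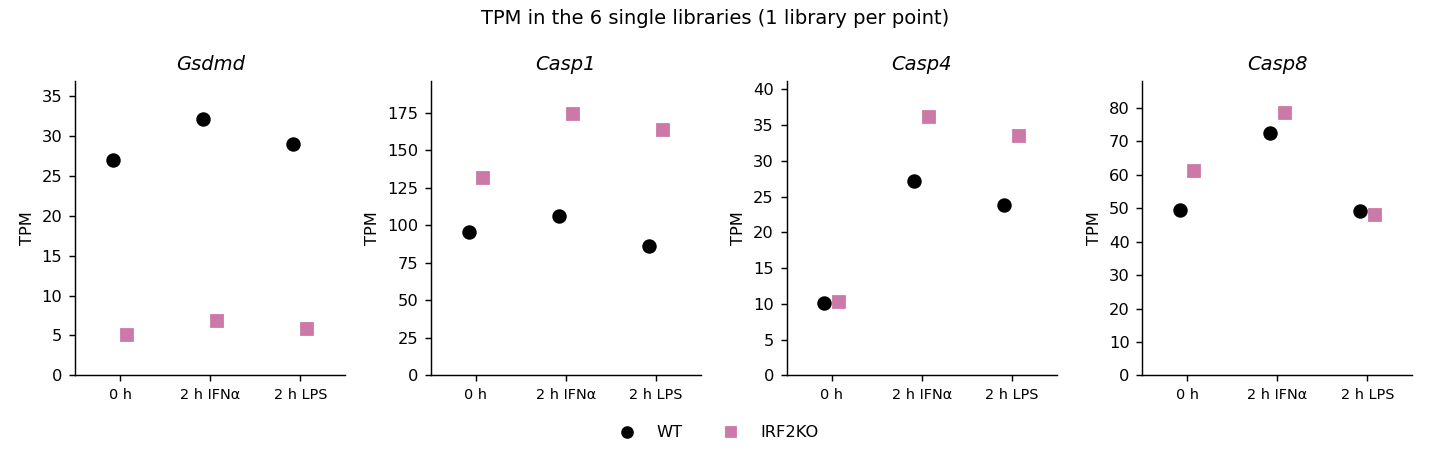
TPM of the 4 genes (y axis, linear, from 0) in the 6 single libraries, 1 library a point: WT (black circles) and IRF2KO (pink squares) at 0 h, after 2 h of IFNα and after 2 h of LPS (x axis). Gsdmd was at 27.0 to 32.2 TPM in the WT libraries and at 5.03 to 6.80 TPM in the IRF2KO libraries.

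The 6 single libraries have no replicate and no test. Their Casp4 values stand in another entry of the table, with another list of transcript identifiers, than those of the 24, and levels were not compared between the 2 sets. Gsdmd was at 27.0 TPM at 0 h, 32.2 TPM with IFNα and 29.0 TPM with LPS in WT, and at 5.03, 6.80 and 5.76 TPM in IRF2KO. IRF2KO minus WT was −2.21, −2.09 and −2.15 on the log2 scale, and both lines differed by at most 0.37 between any stimulus and 0 h. Casp1 was at 95.2, 105.8 and 86.0 TPM in WT and at 131, 174 and 164 TPM in IRF2KO, which lay above WT by 0.46, 0.71 and 0.92. Casp4 was at 10.2, 27.1 and 23.8 TPM in WT and at 10.2, 36.1 and 33.4 TPM in IRF2KO. LPS libraries exceeded those at 0 h in Casp4 by 1.15 in WT and 1.62 in IRF2KO, and IFNα libraries by 1.33 and 1.73. Casp8 was at 49.4, 72.5 and 49.2 TPM in WT and at 61.2, 78.5 and 47.9 TPM in IRF2KO, with IFNα above 0 h in both lines.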

How the data were processed

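RNA sequencing of 30 libraries was used through the 1 table of TPM values that the authors deposited. Per the submitters' processing notes, bcl2fastq 2.20, Bowtie 0.12.2 and RSEM were used with mm10 and GRCm38, with no role given for each. RSEM divides reads that fit several transcripts, and TPM keeps no depth, so no count model was used. The 41346 entries hold 31427 symbols, and 9919 symbols have 2 entries, as Casp4 does. Entries of a symbol were summed within the 24 replicated and within the 6 single libraries, and levels were not compared between these sets.

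For the replicated libraries, log2(TPM + 1) was fitted with limma 3.58.1 in R 4.3.3 for the 11842 genes that reached 1 TPM in 2 libraries or more, with 12 group means, a trended prior variance and 12 residual degrees of freedom (11 with the replicate block). Two-sided p-values were adjusted (Benjamini-Hochberg) separately for each of 33 comparisons, 9 of them interactions. Replicate numbers carry 1 date-like code each in the titles and were taken to pair the libraries. For 56 of 66 pairs of groups, same-numbered libraries deviated together with r over 0.1 (the median r was 0.233 and the range −0.160 to 0.481). Nothing in the labels says that replicates are separate cultures, so p-values measure the spread between these libraries, which may be technical. The fit without the block was tested on simulated data in which each library was drawn independently. Those data held no shared deviation of same-numbered libraries, so they cannot decide between the fits with and without the block.

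Members and gene lists were chosen with earlier results of these data known, and 1 gene of these lists is not reported here. Up to 3 genes per list and comparison that were called without the block were named, by smallest p and with at least 5 TPM in the higher group. Alternatives covered pseudocounts of 0.1 and 5, filters, scaling, the prior variance, the block, the groups fitted and each library left out. Python 3.11.15, numpy 2.4.6, pandas 2.3.3 and matplotlib 3.10.9 were used for the promoters, single libraries and plots.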

Additional observations from a re-analysis of the deposited data

How the results depend on the processing

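Without the replicate block 1 of the 4 genes was called in each of the 3 comparisons of IRF2KO with WT, of DKO with WT and of DKO with IRF1KO, and in IFNγ against media in WT. With the replicate block the count was 2 for IRF2KO against WT under each treatment and for DKO against IRF1KO with IFNα, where Casp1 joined Gsdmd. It was 1 in place of 0 for DKO against IRF2KO with IFNγ (Casp1) and for Casp4 in 7 further interferon comparisons, namely IFNα in WT and both interferons in IRF1KO, IRF2KO and DKO. The block changed no other call of the 4 genes. With only the compared groups in the fit the count fell to 0 for IRF2KO against WT under each treatment, for DKO against WT and against IRF1KO with IFNγ, and for IFNγ against media in WT, a fit with fewer samples. The Casp4 call for IFNγ in WT was also lost, giving 0, with no filter (adjusted p = 0.0856), quantile normalization (0.0544), median-ratio scaling (0.0514), a robust prior variance (0.0534) and a prior without trend (0.0508), and the cause was not tested. With 1 library left out at a time the count ran from 1 to 2 for IRF2KO against WT with IFNα, and from 0 to 1 for IFNγ against media in WT, IFNα against media in IRF2KO and in DKO and IFNγ against media in IRF2KO. In the last 3, Casp4 was called without the first media library of that line (1.95, adjusted p = 0.0487, for IFNα in IRF2KO, 2.09 and 0.0412 in DKO, and 2.07 and 0.0437 for IFNγ in IRF2KO), while without the second media library the differences were 0.90, 1.08 and 1.03 (adjusted p = 0.569, 1 and 0.637). The lone media library is assumed to vary like the other groups. Over all alternatives no called difference of a member changed sign. Median-ratio scaling moved the median of all genes by −0.12 for DKO against IRF2KO in media and by −0.13 for the response to IFNα in IRF2KO against WT, and by −0.11 for DKO against the sum of the single mutants in media, where no member was called. Depth is unknown.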
